A study of Homo sapiens with 8 samples.

Results

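Voltage-gated ion channel genes and their relatives were described for binding by RBFOX2 in HEK293T cells, a human embryonic kidney line. A member was a protein-coding gene with a RefSeq span shorter than 500 kb and a symbol that starts with CACN, KCN or SCN followed by the letter or digit of a channel name. Of 136 such symbols, 131 were shorter than 500 kb, and the 106 with a known strand were taken as members, out of 17201 protein-coding genes under the same limits. A called peak belonged to a member when its midpoint lay in the span on the gene's strand. This gave 5389 peaks of 1118316 in the 4 deposited lists.

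The gene strand came from RefSeq for 93 members. For the other 13 it was read from the called peaks themselves, where at least 10 peaks lay outside other annotated spans and at least 90% were on one strand. Those 13 include CACNA1H, the gene with the most enriched peaks below. The remaining 25 genes had no strand and were left out. Of these, 9 held 65 called peaks on either strand and none was enriched. At the length limit, CACNA2D1, 497.5 kb long, was inside with 286 called peaks and 0 enriched, and KCNQ5, 576.8 kb long, was outside with 725 called and 0 enriched.

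In eCLIP, proteins are fixed to their RNA with ultraviolet light, a protein is pulled down, and the RNA attached to it is sequenced beside an input. The study holds a single kind of experiment, RBFOX2 IP from HEK293T cells for which the labels give no genetic change and no treatment other than crosslinking, with 4 IP libraries and 4 inputs numbered 1 to 4. Cells were crosslinked with 400 mJ/cm2 at 254 nm, and the input was 2% of the sample. The deposited values already set each IP against its input: a log2 fold and a −log10 p for each called peak. Nothing in the labels says whether the replicates are separate cultures, so the spread between them may be technical. The lists hold no expression levels and no read counts, so depth is unknown and the cell line was not checked against markers.

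RBFOX2 is a splicing regulator that binds RNA at the letters GCAUG, and it is known for its part in the alternative splicing of neuronal and muscle transcripts, channel transcripts among them. Voltage-gated channels open when the membrane potential changes. Sodium channels (SCN) carry the upstroke of the action potential, calcium channels (CACN) couple voltage to calcium entry, and potassium channels (KCN) bring the potential back. Each has a pore-forming subunit and accessory subunits that set its trafficking and gating. The KCN symbols also cover inward rectifiers, tandem-pore and calcium-activated channels, many of which are not opened by voltage.

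Enriched RBFOX2 peaks on channel transcripts were concentrated in a single gene, CACNA1H. It encodes the pore-forming subunit of the T-type calcium channel Cav3.2, which opens at small depolarisations. Here an enriched peak is one whose log2 fold and −log10 p both reach 3, limits customary for eCLIP. Channel genes held 77, 90, 105 and 96 enriched peaks in replicates 1 to 4 (mean 92 ± 11.7, SD, n = 4), and 93.5% of them lay in CACNA1H. Without it the counts were 4, 4, 7 and 9. Replicate 1 was lowest for the whole set and replicate 3 highest, but the limit on p did not act alike in the lists, as given below for CACNA1H.

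Of the 1283, 1395, 1382 and 1329 called channel peaks, 6.82% ± 0.724 (SD, n = 4) were enriched. Over all called peaks of the 4 lists the share was 0.818%, and over peaks in other protein-coding genes it was 0.849% ± 0.0509. The difference from other genes was 5.10, 5.57, 6.78 and 6.43 percentage points in replicates 1 to 4 (mean 5.97 ± 0.771). It was above 0 in 4 of 4 replicates, with an exact two-sided sign-flip permutation p of 0.13, the smallest that 4 replicates allow. Without CACNA1H, left out after its values were seen, the direction turned. The enriched share was then 0.523% ± 0.214 and the difference −0.33 ± 0.264 percentage points, at or below 0 in 4 of 4 replicates (exact sign-flip permutation p = 0.13). The other genes kept their own highest gene, so a fall was built in and this direction is no test. With the strand taken from RefSeq alone, which leaves out the 13 genes, the difference was −0.64 ± 0.162 and the mean count 1.75 enriched peaks per replicate. Counting peaks on either strand gave 92.5 per replicate. The difference was 2.27 percentage points with a limit of 5 on the −log10 p, and 13.2 over the pore subunits of voltage-gated channels alone.

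Called peaks were found in 49 of the 106 members (46.2%), against 69.4% of all 17201 protein-coding genes under the same limits, and 39 members had one in all 4 lists. A gene with no called peak cannot be told apart here from one that is not expressed. Of the 49, 6 held an enriched peak (12.2%), and among all protein-coding genes with a called peak that share was 8.82%. Among genes with at least 80 called peaks over the 4 lists, 5 of 19 channel genes (26.3%) held an enriched peak, against 18.8% of all such genes. The genes described below are CACNA1H, KCNIP2, CACNG8 and KCNC1. The plot of peaks by gene shows how called peaks spread over many channels while enriched peaks did not.

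**Figure D1:**
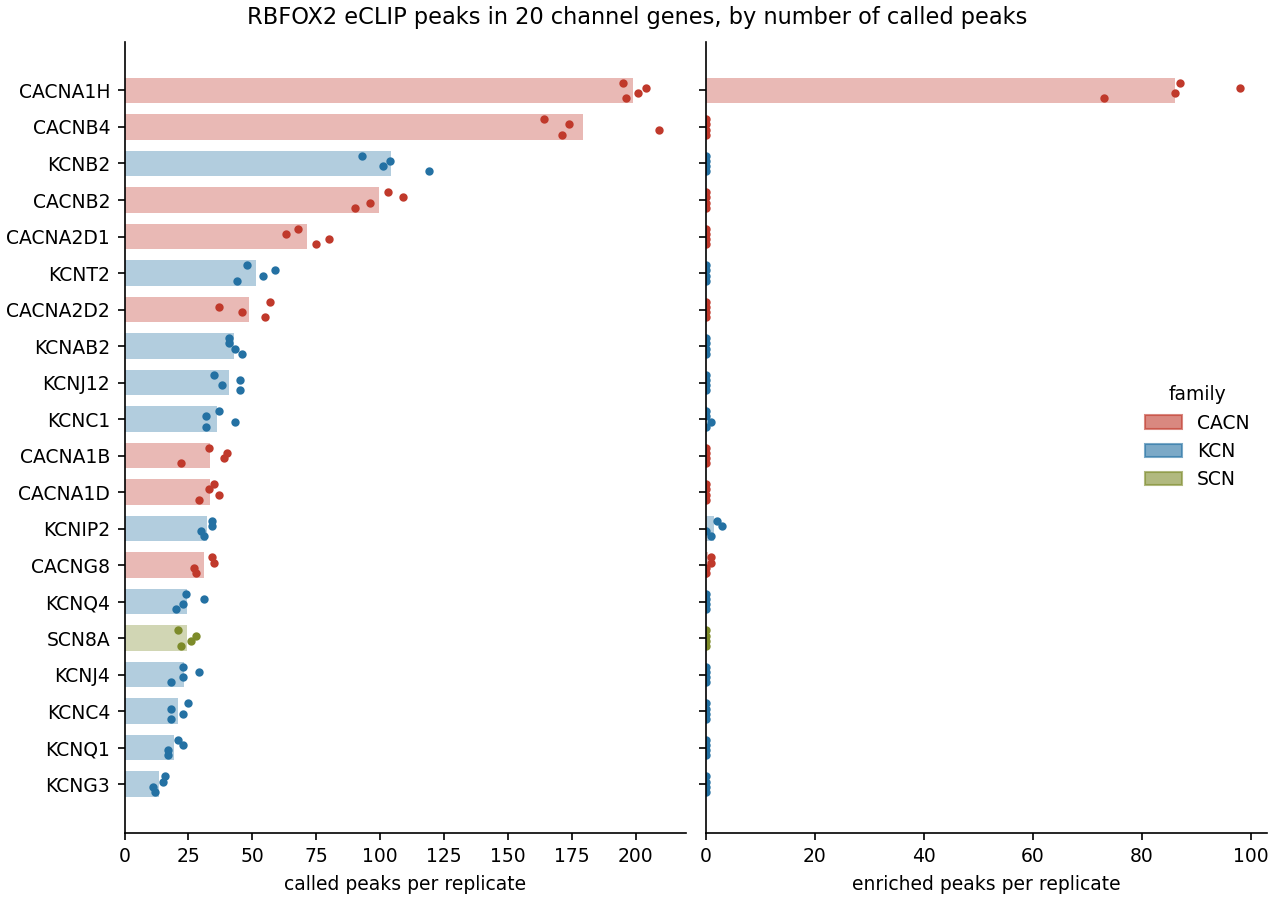
Called peaks (left) and enriched peaks (right) per replicate for the 20 channel genes with the most called peaks among those reported here; bars are means of 4 replicates, points are replicates, and colours are the symbol families. CACNA1H and CACNB4 have the most called peaks, and CACNA1H alone has more than 3 enriched peaks in a replicate among the genes shown.

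By family, 12.1% ± 1.46 of called CACN peaks, 0.931% ± 0.327 of called KCN peaks and 0 of 175 called SCN peaks were enriched. With the 4 lists pooled, a count of 0 in 175 allows a share of up to 1.71%. Such limits, here and below, count peaks of the same site in several lists as separate, so the actual limit is wider. CACN exceeded KCN by 11.2 ± 1.33 percentage points and SCN by 12.1 ± 1.46, and KCN minus SCN was 0.931 ± 0.327. Each pair had an exact sign-flip permutation p of 0.13 and an adjusted p of 0.13 over the 3 pairs (Benjamini-Hochberg). CACN was above KCN in 4 of 4 replicates. The differences from SCN could not fall below 0, since no SCN peak was enriched, so their direction is no test, and the share that 0 of 175 allows is above that of KCN. The calcium channel share rested on CACNA1H. The other CACN genes had 0, 0, 1 and 1 enriched peaks. They were 0.0987 ± 0.114 percentage points above SCN genes (exact sign-flip permutation p = 0.50), and their share was below that of KCN genes by −0.83 ± 0.239 percentage points, in 4 of 4 replicates. CACNA1H was left out after its values were seen, while KCN genes kept their highest gene, so this direction is no test.

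CACNA1H lies on chromosome 16 from 1153106 to 1221768, plus strand, in a span of 68.7 kb (GRCh38). Its called peaks numbered 196, 201, 204 and 195, and its enriched peaks 73, 86, 98 and 87 (mean 86 ± 10.2, SD, n = 4). The called counts differed little between replicates, and the enriched counts were lowest in replicate 1 and highest in replicate 3. The enriched share was 37.2%, 42.8%, 48.0% and 44.6%. The limit on p did not act alike in the 4 lists. A log2 fold of 3.70 came with a −log10 p of 2.74 at peaks of replicates 1 and 4, and of 3.01 in replicates 2 and 3. Such peaks were enriched only in replicates 2 and 3, so enriched counts are no even comparison of replicates. With a −log10 p limit of 3.1 in replicates 2 and 3, the mean for CACNA1H was 81.8 ± 6.70 enriched peaks. Its peaks were read as plus because 756 called peaks outside other spans were plus and 0 were minus.

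No other protein-coding gene under 500 kb held as many enriched peaks. CACNA1H ranked 1 of 11944 in each replicate and in the sum, with 344 enriched peaks over the 4 lists against 142 in the next gene. The next gene held 36, 36, 36 and 41 in replicates 1 to 4. CACNA1H alone made up 3.17%, 3.60%, 4.31% and 4.00% of all enriched peaks of the lists. By the enriched share of called peaks it ranked 11 of the 3808 genes with at least 80 called peaks. CACNA1H was singled out after its values were seen, so these ranks are descriptions with no test.

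**Figure D2:**
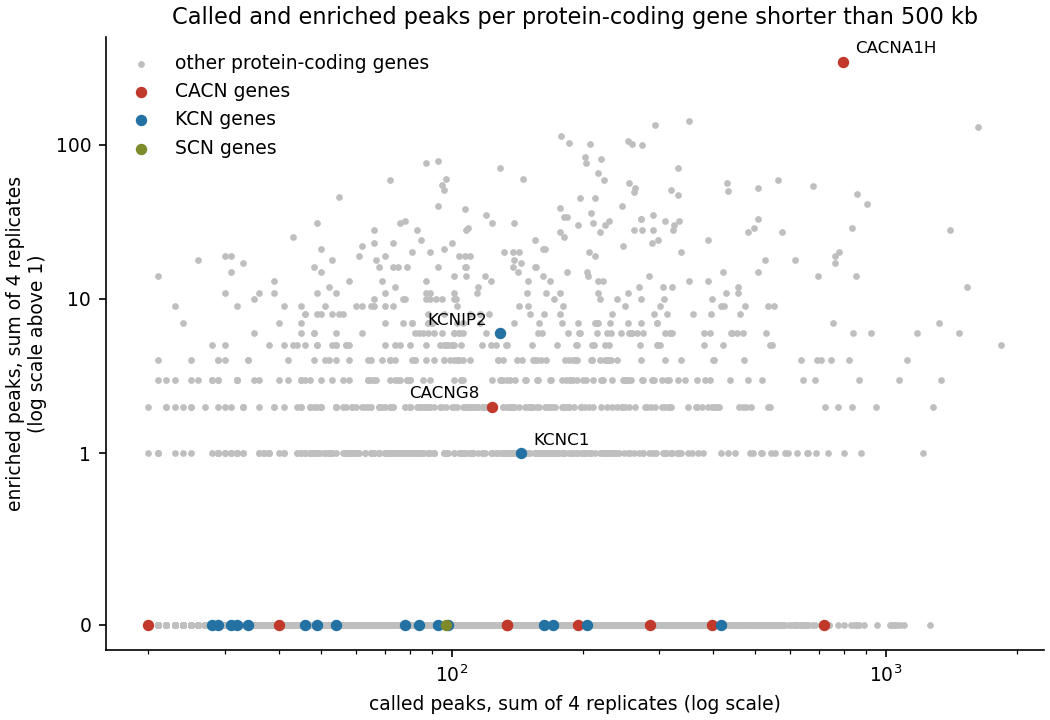
Enriched against called peaks, both summed over 4 replicates, for the protein-coding genes shorter than 500 kb with at least 20 called peaks; the horizontal axis is logarithmic, the vertical axis is logarithmic above 1, and channel genes are coloured by family, with those not reported here left out. CACNA1H, at 344 enriched peaks, lies above every other gene, and KCNIP2 has 6.

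Nearly all called CACNA1H peaks had a fold above 0.5 on the log2 scale, many of them short of the limits for an enriched peak. The median log2 fold of its called peaks was 3.0, 3.17, 3.17 and 3.17 in replicates 1 to 4, against −0.000866, 0.00141, 0.000771 and −0.000497 for the other channel genes. The 4 lists thus gave nearly the same CACNA1H median. Folds recur as stepped values, such as 3.81 with a −log10 p of 3.01 at several peaks of replicate 1. Close medians therefore do not show that a single fold is precise. In CACNA1H 98.2% ± 0.466 of called peaks exceeded a log2 fold of 0.5, and in the other channel genes 34.1% ± 1.53 did. The called peaks covered 17.0% ± 0.414 of the span and the enriched ones 9.12% ± 0.970 (SD, n = 4 for each). Many enriched peaks sat near the limit on p. Their median −log10 p was 4.68, 4.68, 4.40 and 5.24, and a further 21, 28, 28 and 21 peaks passed the limit on fold alone. With a −log10 p of at least 5, the mean was 35.3 enriched peaks per replicate.

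Enriched CACNA1H peaks ran along the first 45 kb of the span and thinned out beyond it. In steps of 10 kb from the start, the mean number of enriched peaks per replicate was 25.5, 18.8, 13.5, 23, 4.00, 0.75 and 0.50. Called peaks fell in the same steps, from 48.5, 41.0, 33.0 and 43.0 in the first 4 to 19.8, 6.25 and 7.5 in the last 3. Of called peaks in the first 45 kb, 46.5% ± 5.61 were enriched, against 7.98% ± 6.38 of those beyond (SD, n = 4). The median log2 fold was 3.21 ± 0.0968 in the first stretch and 1.90 ± 0.126 in the second. The split at 45 kb was chosen after seeing the positions and was not tested. The exons of CACNA1H were not used here, so positions are distances from the start of the span. The plot of folds along CACNA1H shows the same stretch in each replicate.

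**Figure D3:**
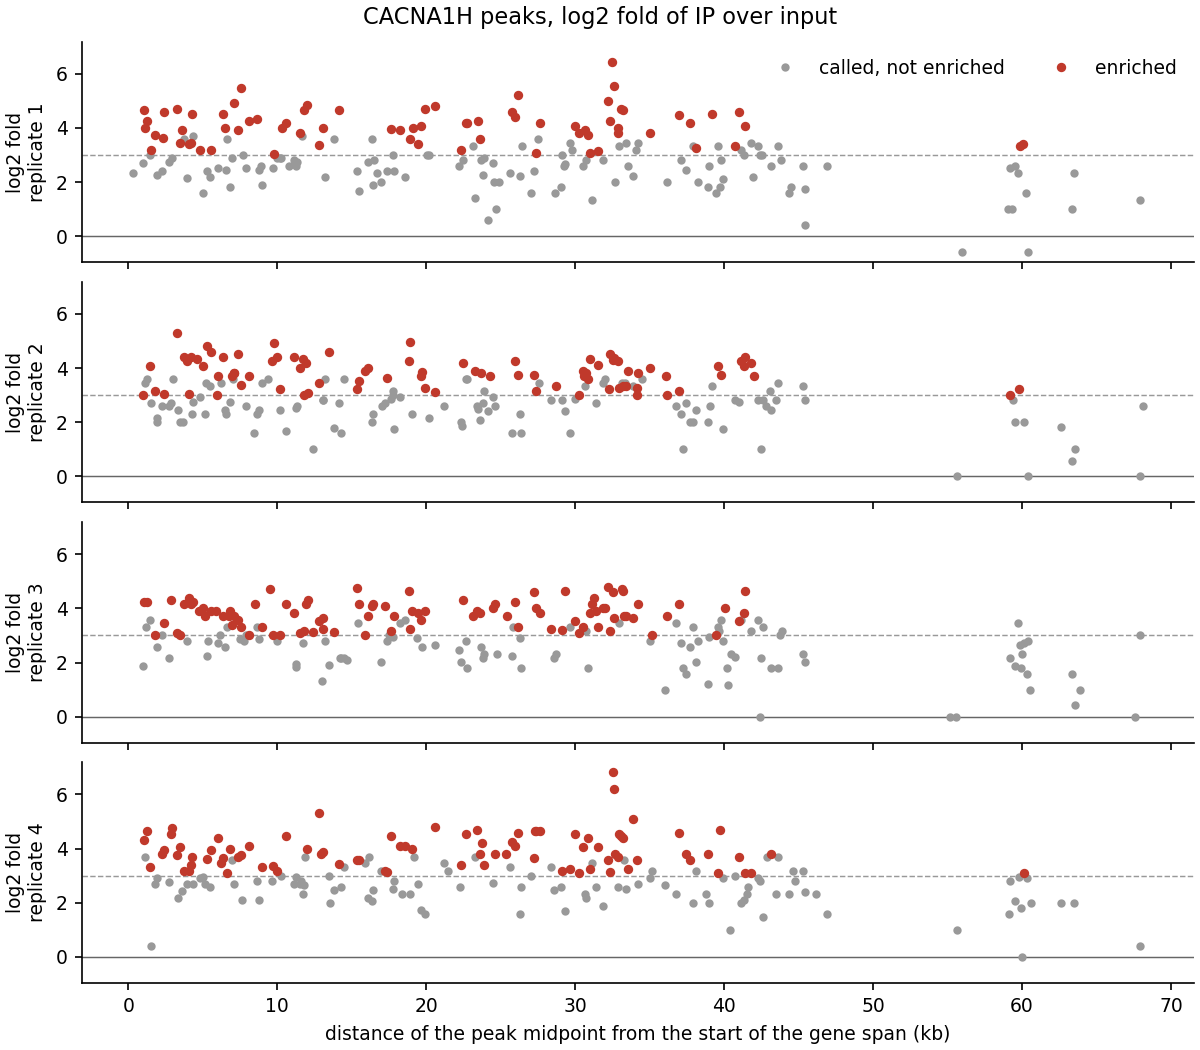
Log2 fold of IP over input (vertical axes) of each called CACNA1H peak against its distance from the start of the span in kb, for replicates 1 to 4; red points are enriched, grey points are called but not enriched, and the dashed line is a log2 fold of 3. Enriched peaks lie along the first 45 kb with gaps in all 4 replicates, and 2, 2, 0 and 1 lie beyond. Within the first 45 kb the last enriched peak is at 41.4, 42.0, 41.4 and 43.2 kb in replicates 1 to 4.

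Part of these sites recurred. Merging overlapping enriched peaks on the same strand gave 150 CACNA1H regions. An enriched peak was present in just 1 replicate for 59 regions, in 2 for 39, in 3 for 30 and in all 4 for 22. These are 39.3%, 26%, 20% and 14.7% of the 150. Over the whole series 52.8% of enriched regions were in 1 replicate, 20.2% in 2, 10.6% in 3 and 16.4% in all 4. The 22 CACNA1H regions in all 4 are thus near the background. In number they were 3.99% of the series' 552 such regions, and no other channel gene held one. With a −log10 p of at least 5, 4 remained past the limits, and with a log2 fold of at least 1, 37 did. Leaving out replicate 2 gave 37 in the remaining 3. An enriched CACNA1H peak overlapped an enriched peak of another replicate in 63.5%, 55.4%, 52.7% and 57.1% of cases. The same share over all enriched peaks of the series was not taken, so these values cannot be called particular to CACNA1H.

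The 22 regions had midpoints between 2.38 and 41.4 kb from the start, with a median gap of 731 nt and a longest gap of 13032 nt. Their median length was 113 nt, and their mean log2 folds ran from 3.25 to 5.53. The highest belonged to chr16:1185543-1185736, plus strand, 32.5 kb from the start. Replicates 1 to 4 gave it log2 folds of 6.44, 4.30, 4.59 and 6.81 (mean 5.53 ± 1.27, SD, n = 4), with −log10 p values of 24.2, 14.1, 11.9 and 31.7. Replicates 1 and 4 were higher than replicates 2 and 3 there. Its neighbour chr16:1185243-1185473 had 5.00, 4.52, 4.78 and 3.58 (mean 4.47 ± 0.62). The region chr16:1178984-1179112 varied least, at 4.39, 4.25, 4.25 and 4.09 (mean 4.24 ± 0.12).

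One of the 163 enriched channel regions lay inside a sequence held by the RefSeq tables, and its letters are shown because RBFOX2 is known to bind GCAUG. It is chr16:1158622-1158733, plus strand, 5.57 kb into CACNA1H and enriched in all 4 replicates. It was read as the reverse complement of the promoter window of LOC124903622, a minus-strand gene inside CACNA1H (GRCh38.p14). The letters GCATG are in capitals.

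CACNA1H chr16:1158622-1158733: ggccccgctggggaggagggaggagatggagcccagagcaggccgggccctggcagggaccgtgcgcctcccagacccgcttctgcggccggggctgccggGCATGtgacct

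Replicates 1 to 4 gave this region log2 folds of 3.17, 4.59, 3.91 and 3.95 (mean 3.90 ± 0.58, SD, n = 4). It holds 1 copy of GCATG on the sense strand, at bases 102 to 106, and no CATGC, the same letters on the other strand. The copy is near the end of the region. The enriched peak of replicate 3 covered it, that of replicate 4 ended inside it, and those of replicates 1 and 2 ended before it. Of 35116 stretches of the same length and place in RefSeq promoter windows, 8.08% held GCATG and 12.4% held either form. The letters are a description of 1 region, chosen only because its sequence was at hand, and its GC content was 75.9%, against a median of 59.8% in those stretches.

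To set the fold against the spread between replicates, the mean log2 fold of each merged region with a called peak in all 4 lists was tested against 0 over the whole series (limma, Benjamini-Hochberg, threshold 0.05). Of all 49493 regions 20.6% were higher and 1.79% lower, the shares to set beside the region counts of each gene and group below. Where a replicate had several peaks in a region, the peak of highest −log10 p was taken. No called peak with a log2 fold below 0 had a −log10 p above 0. The choice thus favours higher over lower calls, so counts in the 2 directions are no even comparison. Of 288 channel regions 159 were higher and 0 lower, with 189 at an unadjusted p under 0.05 in either direction. CACNA1H held 117 of the 288. The other channel genes had 44 of 171 regions higher, and their median mean log2 fold was 0.76, against 0.50 over all regions and 2.13 over all channel regions. With the strand from RefSeq alone, 26 of 108 channel regions were higher.

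In CACNA1H, 115 of 117 regions were higher, with a median mean log2 fold of 3.32 and limma adjusted p-values from 0.00412 to 0.0308. The higher regions include 110 of 110 with a midpoint in the first 45 kb and 5 of 7 beyond. The uncalled regions were 63.5 and 67.9 kb from the start, with mean log2 folds of 1.43 and 1.18. The limma calls depended on the number of replicates. Without replicate 1, 2 or 4 no region of the whole series was called, with smallest limma adjusted p-values of 0.0509, 0.0503 and 0.0509, and 191, 192 and 201 channel regions had an unadjusted p under 0.05. Without replicate 3, 59 channel regions were higher, 48 of them in CACNA1H.

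**Figure D4:**
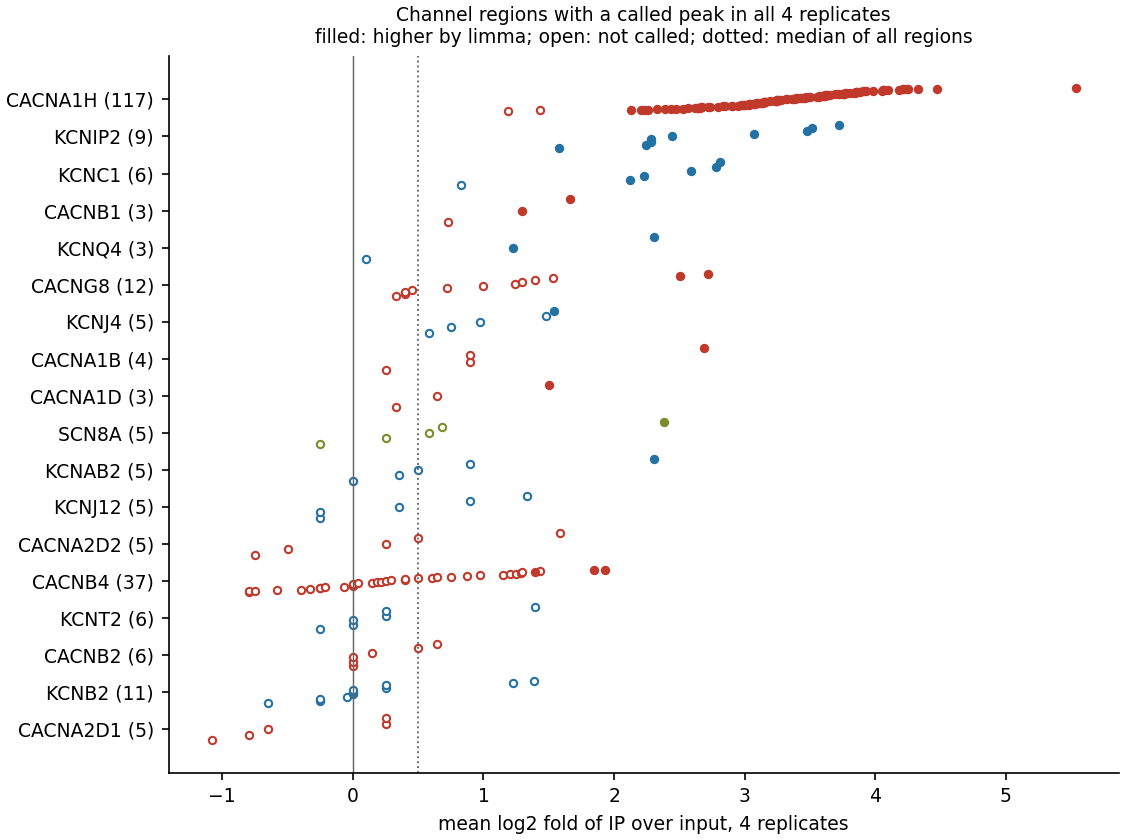
Mean log2 fold over 4 replicates of each channel region with a called peak in all 4 lists, by gene, for genes with at least 3 such regions (number in brackets), with genes not reported here left out; filled points are higher by limma, open points are not called, and the dotted line is the median of all regions, 0.50. Regions of CACNA1H, KCNIP2 and KCNC1 lie to the right of it, as do those of KCNJ4 and CACNB1, which had no enriched peak. Those of CACNB4 and KCNB2 lie on both sides of 0, and those of CACNB2 run from 0.000205 to 0.646.

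Among the other calcium channel genes, accessory subunits had many called peaks and almost no enrichment. CACNB4, a beta subunit that brings the pore to the membrane, lies on chromosome 2 from 151832771 to 152099167, minus strand. It had 171, 209, 174 and 164 called peaks, close to the number in CACNA1H, and 0 enriched, which allows a share of up to 0.418%. Of its 37 tested regions 3 were higher by limma and 0 lower, where 20.6% of all regions were higher. The highest of them, 9.59 kb from the start, had log2 folds of 1.81, 2.00, 2.32 and 1.58 (mean 1.93 ± 0.31, limma adjusted p = 0.00908). It was above 0 in each replicate and well short of the limit for an enriched peak.

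The 4 Cav beta genes together held 294 ± 23.1 called peaks per replicate (SD, n = 4) and 0 enriched. By limma 5 of their 46 tested regions were higher, where 20.6% of all regions were. The alpha2delta genes, which raise the number of channels at the surface, held 120.3 ± 13.7 called peaks, 0 enriched and 0 of 10 regions higher (limma, 1 at an unadjusted p under 0.05). Of the 8 Cav pore members, 3 had called peaks, where 69.4% of all protein-coding genes under the same limits did. The 2 besides CACNA1H were CACNA1B and CACNA1D, named here after their values were seen. They had 0 enriched peaks. By limma 1 of 4 tested CACNA1B regions and 1 of 3 tested CACNA1D regions were higher, where 20.6% of all regions were.

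CACNG8, a gamma subunit known chiefly as an auxiliary protein of AMPA-type glutamate receptors, lies on chromosome 19 from 53962937 to 53990215, plus strand. It had 28, 27, 35 and 34 called peaks and 0, 0, 1 and 1 enriched. Both enriched peaks recurred as called peaks. The region chr19:53963586-53963763, near the start of the gene, had log2 folds of 2.32, 2.66, 3.37 and 1.68 (mean 2.51 ± 0.71), and chr19:53977154-53977254 had 2.81, 2.91, 1.91 and 3.25 (mean 2.72 ± 0.57). Only replicate 3 passed the limit in the first and only replicate 4 in the second. The tested regions that hold them were the 2 of 12 called higher (limma adjusted p = 0.0103 and 0.00695).

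Voltage-gated potassium pore genes held 3, 4, 3 and 6 enriched peaks among 334.3 ± 10.3 called peaks per replicate (SD, n = 4). Of 31 members, 13 had a called peak, where 69.4% of all protein-coding genes under the same limits did. Of their 53 tested regions, 21 were higher by limma, where 20.6% of all regions were. The gene described here is KCNC1, which encodes a Kv3 channel, a type whose fast closing lets neurons fire at high rates.

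KCNC1, on chromosome 11 from 17734781 to 17783057, plus strand, had 32, 43, 32 and 37 called peaks and 0, 1, 0 and 0 enriched. Its higher regions lay close together. Of its 6 tested regions, 5 were higher, and these 5 had midpoints from 2.62 to 4.05 kb from the start of a span of 48.3 kb, while the uncalled one was at 41.5 kb. The region that holds the enriched peak, chr11:17738069-17738227, had log2 folds of 2.81, 3.81, 2.32 and 2.32 (mean 2.81 ± 0.70, limma adjusted p = 0.00816). Replicate 2 was the highest and alone passed the limits.

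KCNB2, which encodes the delayed rectifier Kv2.2, was the KCN gene with the most called peaks. It lies on chromosome 8 in a span of 401.1 kb and had 119, 101, 104 and 93 called peaks and 0 enriched, which allows a share of up to 0.719%. Its median log2 fold was near 0 in each replicate, and 0 of its 11 tested regions were higher (limma, smallest adjusted p 0.0908, 1 region at an unadjusted p under 0.05). Neither KCNB2 nor CACNB4 thus held an enriched peak, with more called peaks than any other member under 500 kb but CACNA1H.

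Among potassium channel accessory subunits, KCNIP2 was the 1 of 7 genes with a called peak that also held enriched ones. It encodes a calcium-binding partner of Kv4 channels that shapes the transient outward current of the heart. It lies on chromosome 10 from 101825974 to 101843800, minus strand, and had 31, 30, 34 and 34 called peaks and 1, 0, 3 and 2 enriched. The median log2 fold was 2.25, 2.45, 2.32 and 2.00, similar in the 4 lists. By limma 9 of 9 regions were higher, with mean log2 folds from 1.58 to 3.72.

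The strongest KCNIP2 region, chr10:101829200-101829346, had log2 folds of 3.70, 2.7, 4.25 and 4.25 (mean 3.72 ± 0.73, limma adjusted p = 0.00539) and was enriched in replicates 3 and 4. In replicate 1 the fold passed and the −log10 p, 2.74, did not. A fold of 3.70 had a −log10 p of 3.01 at CACNA1H peaks of replicates 2 and 3. The enriched KCNIP2 regions lay at 1.51 kb and between 13.1 and 14.5 kb from the start of a span of 17.8 kb. The strands of KCNIP2 and KCNC1 are from RefSeq, so their values do not rest on the strand read from peaks.

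The remaining potassium channel groups had no enriched peak. Their counts of regions higher by limma compare with 20.6% of all regions. Inward rectifiers, which hold the resting potential, had 76.0 ± 9.06 called peaks per replicate and 1 of 11 tested regions higher. Part of them belong to KCNJ12, which has near-identical copies, so its reads may be split or shared. Tandem-pore channels, which carry leak current, had 32.5 ± 4.20 called peaks and 1 of 2 regions higher. Calcium- or sodium-activated channels had 59.3 ± 6.08 and 0 of 7 regions higher (limma, 2 at an unadjusted p under 0.05).

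Sodium channel genes had the fewest called peaks of the 3 families, 36, 43, 53 and 43 per replicate. SCN8A, which encodes Nav1.6 of neuronal axons, had 22, 26, 28 and 21 called peaks and 0 enriched, which allows a share of up to 3.09%. Of its 5 tested regions 1 was higher, where 20.6% of all regions were. It lay 131.8 kb from the start, with log2 folds of 2.81, 2.32, 2.81 and 1.58 (mean 2.38 ± 0.58, limma adjusted p = 0.00912).

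Genes outside the rule that bind, anchor or resemble these channels were looked at as a list of 35 (ankyrins, calmodulins, HCN and CLCN channels and others). Of the 32 with a strand, 20 had called peaks, and 4 of these (20%) held an enriched one. Among protein-coding genes under 500 kb with a called peak 8.82% did, but the list of 35 had no length limit. By limma 24 of 105 tested regions (22.9%) were higher and 0 lower, near the 20.6% of all regions. CALM3, a calmodulin gene, held 1, 5, 2 and 3 enriched peaks among 15, 19, 18 and 18 called, and 1 region enriched in all 4. HCN3 held 2 enriched peaks over the 4 lists, and NEDD4L and SPTAN1 held 1 each. The channel genes of 500 kb or more, CACNA1C, CACNA2D3, KCNQ5, KCNIP4 and KCNMA1, had 313, 750, 725, 0 and 0 called peaks and 0 enriched.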

How the data were processed

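The authors deposited 1 peak list per IP library, each against its paired input, with no header. Their columns were read, from the values, as a deposited −log10 p and a deposited log2 fold. The submitters' processing notes name UMI-tools 1.1.1, cutadapt 3.2, STAR 2.7.7a, hg38 and GRCh38.p13. The peak caller, the scaling and any filter are not given in the sources used here, and a difference in scaling between lists would shift all folds of a list. Gene spans and promoter sequences are RefSeq's (GRCh38.p14). Strands were inferred from called peaks for 13 members, a step chosen after seeing the data. On 8004 genes with both sources it agreed for 99.5%, and on channel genes for 24 of 25. Regions merge peaks with at least 1 nt overlap on a strand, and each takes the peak of highest −log10 p. The limma 3.58.1 test (R 4.3.3, intercept only, eBayes without trend, two-sided) ran over all 49493 regions. It was also run on simulated normal values with known shifts. That run checks the procedure and does not speak for the stepped folds of these lists. Other tables used Python 3.11.15 with pandas 2.3.3. Genes were named by a rule: those with enriched regions, ordered by recurrence, and the 2 with most called peaks per family. Some genes that the rule names are not reported here, and counts over groups include them. Members and lists were chosen with earlier results of these data known. Alternatives changed thresholds, strand, overlap, gene sets and replicates.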

Additional observations from a re-analysis of the deposited data

Results flagged for a closer look

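Of 68 sets of 4 replicate values examined for a value far from the other three, 3 had one, and chance gives about 1 in 20. The median log2 fold of SCN8A peaks was 0.50 in replicate 1, against 0.00141, 0.000771 and −0.000497 in replicates 2 to 4. The CACNA1H region 12.8 kb from the start had log2 folds of 3.38, 3.46 and 3.52 in replicates 1 to 3 and 5.32 in replicate 4. The CACNA1H region 30.3 kb from the start had 3.81 in replicate 1 and 3.0, 3.09 and 3.09 in the others. Each of these CACNA1H regions was enriched in all 4 replicates.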

How the results depend on the processing

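Without CACNA1H, an alternative chosen after seeing the data, enriched channel peaks fell to 6 per replicate, regions in all 4 to 0 and higher regions to 44. The difference from other genes turned to −0.33 percentage points and that of CACN from KCN to −0.83, while CACN minus SCN fell to 0.0987. With the strand from RefSeq alone, also chosen later, the values were 1.75, 0, 26, −0.64 and −0.61, and CACN minus SCN was 0. Raising the limit on −log10 p to 5 left 37 enriched peaks and 4 regions in all 4, and differences of 2.27 points from other genes, 4.73 (CACN minus KCN), 4.99 (CACN minus SCN) and 0.252 (KCN minus SCN). Pore subunits alone differed from other genes by 13.2 points. Lowering the limit on the log2 fold to 1 gave 38 regions. Leaving out each replicate gave 25 to 38 regions in the remaining 3 and 0 to 59 higher regions, and the limma adjusted p of the strongest region of CACNA1H, KCNIP2 and KCNC1 then lay between 0.0503 and 0.0708. A −log10 p limit of 3.1 in replicates 2 and 3, chosen later, gave 87.5 enriched peaks. It leaves out peaks there with a log2 fold of 3.70 and a −log10 p of 3.01. In the other settings the results kept their direction and their values stayed within 1.5 times. No paired analysis was possible because each fold already sets an IP against its own input, so the pairing is inside the values tested and no block could be added. Without read counts, the precision of a single fold is unknown.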
